A study of Homo sapiens with 6 samples.

Results

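The enzymes that build cholesterol and fatty acids, with the factors that sense sterols, were followed across 2 human lymphoma lines in which EZH2 had been knocked down. The set was 29 named genes, and a gene was read by its brightest probe set that the array annotation ties to a single gene symbol. Of the 29 genes, 26 had such a probe set, and all 26 passed the filter on dim signal, out of 13036 genes tested and 19775 genes with a single-gene probe set. CYP51A1 (lanosterol demethylase) and FADS1 (delta-5 desaturase) were read only by probe sets with several gene symbols and were left out, and FDFT1 (squalene synthase) was not analysed here.

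The data are 6 arrays. KARPAS-422 and Pfeiffer are established diffuse large B-cell lymphoma lines, which derive from a mature B cell tumour, and both are known to carry activating EZH2 mutations. EZH2 is the enzyme that methylates histone H3 to silence genes. Lentivirus delivered to each line either a hairpin that targets EZH2 (shEZH2) or one with no target (shNTC), with 1 hairpin sequence per arm, in medium with 10% serum and polybrene at 8 ug/ml, and cells were then selected in 10% serum with puromycin at 1 ug/ml for 2 days; the labels give 10 days of knockdown. Each arm holds 2 arrays in KARPAS-422, which the labels call biological replicates, and a single array in Pfeiffer. All arms therefore share infection, serum and selection, and no other EZH2 hairpin was analysed here. Whether the KARPAS-422 replicates came from separate infections is not given, so the p-values reflect the spread of these particular arrays, which may be technical.

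Cholesterol is made from acetyl-CoA through mevalonate, the isoprenoid pyrophosphates, squalene and lanosterol, and fatty acids are made from acetyl-CoA by carboxylation, chain building, elongation and desaturation. Most enzymes of both pathways are controlled together by the SREBP transcription factors, which are made from SREBF1 and SREBF2 as membrane proteins, are held in the endoplasmic reticulum by INSIG proteins when sterols are plentiful, and are cut and sent to the nucleus when sterols run low. SREBP proteins bind sterol response elements and act with NF-Y at CCAAT boxes and with Sp1. Dividing lymphoma cells use these pathways to build membranes.

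The 250 bases before the annotated start of each gene were searched on both strands for 5 strings of letters, in RefSeq promoter sequences of GRCh38.p14. Of the 29 genes, 25 had an entry; ACAT2, FDFT1, SQLE and FASN did not. The CCAAT box was present in 17 of 25 (68%), against 33% of all 27303 promoters of that length, and the Sp1 core GGGCGG in 23 of 25 (92%), against 42.3%. The sterol response element TCACNCCAC was present in 1 of 25, SREBF2, against 0.875% of all promoters, its shorter form CACNCCAC, which overlaps it, in 3 (SREBF2, INSIG1 and SCD), against 4.72%, and the E-box CACGTG in 2, against 6.49%. These are exact matches of letters in a short window and not binding sites. They miss elements with other letters, also inside the window, and the windows do not reach elements further away. The 5 promoters below were chosen because their genes carry the pattern of the arrays: HMGCS1 and FDPS were called lower in KARPAS-422, SREBF1 and FADS2 were called lower and lack the CCAAT box here, and SREBF2 has the sterol element and was not called. Capitals mark CCAAT, its reverse complement ATTGG, and the sterol element.
HMGCS1, chr5:43313413-43313662, minus strand: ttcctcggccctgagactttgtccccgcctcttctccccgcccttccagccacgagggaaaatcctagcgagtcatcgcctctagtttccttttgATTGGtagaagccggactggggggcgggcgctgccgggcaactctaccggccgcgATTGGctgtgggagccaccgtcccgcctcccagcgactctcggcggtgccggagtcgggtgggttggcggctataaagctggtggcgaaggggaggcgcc
FDPS, chr1:155308616-155308865, plus strand: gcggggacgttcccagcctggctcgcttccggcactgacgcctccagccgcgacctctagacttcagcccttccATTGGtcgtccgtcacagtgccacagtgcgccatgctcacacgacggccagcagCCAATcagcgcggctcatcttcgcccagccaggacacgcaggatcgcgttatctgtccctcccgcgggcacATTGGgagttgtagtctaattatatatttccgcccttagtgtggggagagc
FADS2, chr11:61815953-61816202, plus strand: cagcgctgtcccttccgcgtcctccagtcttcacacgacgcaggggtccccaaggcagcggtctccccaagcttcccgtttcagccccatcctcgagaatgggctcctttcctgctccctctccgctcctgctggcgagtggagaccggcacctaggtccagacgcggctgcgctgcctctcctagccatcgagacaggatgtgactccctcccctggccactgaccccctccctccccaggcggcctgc
SREBF1, chr17:17836987-17837236, minus strand: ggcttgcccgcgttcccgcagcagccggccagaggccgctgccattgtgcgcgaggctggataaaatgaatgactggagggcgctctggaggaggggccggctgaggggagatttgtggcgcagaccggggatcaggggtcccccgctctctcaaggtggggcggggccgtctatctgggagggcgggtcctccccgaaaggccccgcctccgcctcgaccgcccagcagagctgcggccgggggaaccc
SREBF2, chr22:41832855-41833104, plus strand: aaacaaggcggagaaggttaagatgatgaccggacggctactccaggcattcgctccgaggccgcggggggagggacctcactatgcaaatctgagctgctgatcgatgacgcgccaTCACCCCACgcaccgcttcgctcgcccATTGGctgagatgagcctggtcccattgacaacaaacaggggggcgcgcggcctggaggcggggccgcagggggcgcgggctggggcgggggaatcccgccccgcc
In the first of these, the CCAAT boxes lie on the opposite strand, from 155 to 151 and from 100 to 96 bases before the start. FDPS has 3 boxes within the window. In SREBF2 the sterol element spans 133 to 125 bases before the start and the box spans 106 to 102.

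Values are log2 MAS5 signals, scaled so that the 2% trimmed mean of the linear signal is 500 on all 6 arrays, and differences are shEZH2 minus shNTC on that scale unless stated. In KARPAS-422 EZH2 read 11.71 and 11.58 with shNTC and 10.52 and 10.55 with shEZH2; it read 11.65 in Pfeiffer shNTC and 10.24 in Pfeiffer shEZH2, so the knockdown was nearly equal on both KARPAS-422 shEZH2 arrays. Across the 13036 genes the KARPAS-422 replicates correlated at r = 0.978 (shNTC) and 0.982 (shEZH2), and across arms at 0.95 to 0.955; genes are not independent, so no p is given. Of 8 B cell markers 7 had a single-gene probe set and all 7 lay above the median of all values (6.205) on every array. Of the 5 myeloid markers read, CD14 (1.11 to 2.88) and LYZ lay below that median on every array. The others reached above it on some arrays: ITGAM lay between 5.33 and 6.71, CSF1R between 5.14 and 6.42 and S100A8 between 3.85 and 6.28. The summed signal of each list ranged from 15.75 to 16.31 for B cell, 11.97 to 13.63 for T cell, 6.989 to 7.963 for myeloid and 8.917 to 13.43 for fibroblast and epithelial markers, on the log2 scale. Of the 6 T cell markers, CD2 and CD5 lay below the median on every array and CD3E lay between 5.89 and 6.76, while CD3D and CD3G were bright in KARPAS-422 and CD8A (13.49 and 13.6) in Pfeiffer. CD3D fell by 0.77 (adjusted p = 0.00943, limma) and CD3G by 0.64 (adjusted p = 0.0417) in KARPAS-422, and their part in the results was not tested. Of the 6 fibroblast and epithelial markers, COL1A1 (8.28 to 8.87) and KRT8 (6.2 to 7.2) lay above the median on every array. COL3A1 and KRT19 lay below it on every array, and EPCAM was bright in Pfeiffer (13.33 and 12.98). The ACTB 3' minus 5' signal in KARPAS-422 was 0.0593 and 0.083 under shNTC but 0.138 and 0.175 under shEZH2. For GAPDH it was -0.182 and -0.158 under shNTC and -0.169 and -0.241 under shEZH2, so there the arms overlapped. The part of either in the results was not tested. Genes of proliferation moved with the arms too: 15 of 17 fell in KARPAS-422, against 12.3% of all genes called lower, with a median of -0.51. There 9 of 9 interferon-stimulated genes rose, against 13.1% of all genes called higher, with a median of 3.09. The part of both lists in the lipid results was not tested either. In bulk RNA, fewer cells of a kind and less RNA per cell cannot be told apart.

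**Figure D1:**
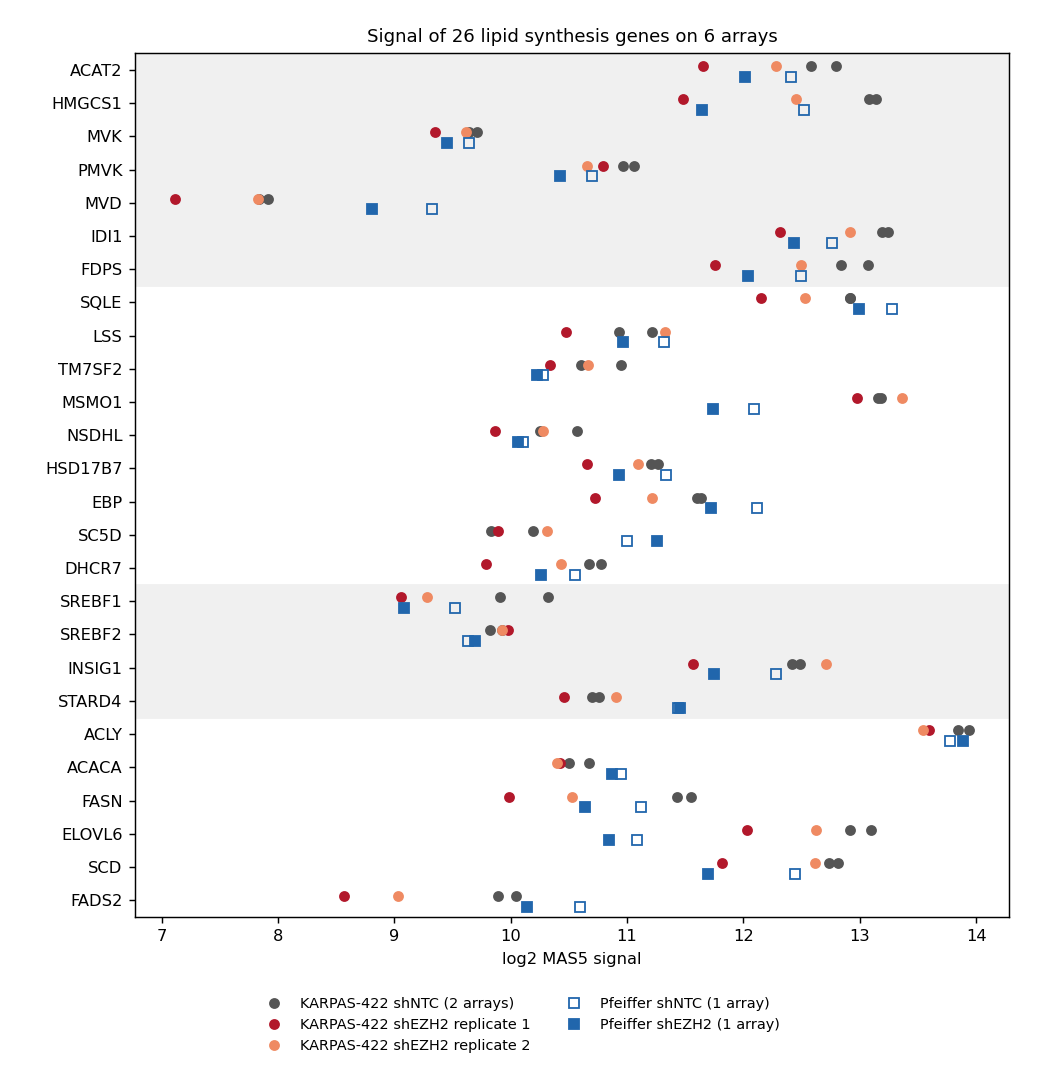
Log2 MAS5 signal (x axis) of each of the 26 genes (y axis) on the 6 arrays, with circles for KARPAS-422 and squares for Pfeiffer. Shading separates mevalonate enzymes, sterol enzymes, sensing and transport genes, and fatty acid enzymes. The shEZH2 replicate 1 array of KARPAS-422 lies leftmost of the 4 KARPAS-422 arrays for most genes, for example at 11.48 for HMGCS1 against 13.14 and 13.08 with shNTC.

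In KARPAS-422 the lipid synthesis genes were mostly lower with shEZH2. Of 26 genes, 11 fell and 0 rose at an adjusted p under 0.05 (limma, Benjamini-Hochberg over all 13036 genes). Among all genes tested 12.3% were called lower and 13.1% higher, 25.4% in all. At an unadjusted p under 0.05 there were 15 members. The share of all genes at an unadjusted p was not computed, here or for the other unadjusted counts below. The shEZH2 mean was the lower for 23 of the 26, against 51.6% of all genes. The median difference of the 26 genes was -0.38, against -0.02 for all genes tested. Both shEZH2 arrays lay below both shNTC arrays for 18 of the 26, against 33.9% of all genes, and above them for 1, SREBF2, against 31.8%, so the arms did not overlap for 19 members, against 65.7%. The genes called were ACAT2, HMGCS1, IDI1, FDPS, SQLE, EBP, SREBF1, ACLY, FASN, ELOVL6 and FADS2.

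The count changed with the arrays and the settings. Without shEZH2 replicate 1 FASN, FADS2 and HMGCS1 were called, 3 in place of 11, with a median of -0.24, and the share of all genes called lower was 4.12% in place of 12.3%. Without shEZH2 replicate 2 it was 12, against 3.21% of all genes, of which 9 were among the 11, with a median of -0.76; DHCR7, INSIG1 and SCD were then called, and SREBF1 and ACLY were not. Without an intensity trend in the variance model 0 were called (7 had an unadjusted p under 0.05), against 1.03% of all genes called lower. After quantile or cyclic loess normalization 5 were called, against 12.2% and 9.25% of all genes: HMGCS1, EBP, SREBF1, FASN and FADS2.

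All 7 mevalonate enzymes read lower with shEZH2 in KARPAS-422, against 51.6% of all genes, with a median of -0.60. Of the 7, 4 fell, against 12.3% of all genes. HMGCS1, which joins acetyl-CoA and acetoacetyl-CoA at the entry to the pathway, read 13.14 and 13.08 with shNTC but 11.48 and 12.46 with shEZH2, with Pfeiffer at 12.52 and 11.65. The arms do not overlap, and shEZH2 replicate 1 is 0.97 below replicate 2. HMGCS1 fell by 1.14 (SE 0.27, n = 2 per arm, adjusted p = 0.0216, limma), which left 45.5% of the control level. FDPS, which makes farnesyl pyrophosphate, read 13.07 and 12.84 with shNTC, 11.76 and 12.50 with shEZH2, and 12.50 and 12.04 in Pfeiffer. It fell by 0.83 (SE 0.22, adjusted p = 0.0314, limma), and most of that came from shEZH2 replicate 1: the difference from the shNTC mean was -1.20 on replicate 1 and -0.46 on replicate 2. FDPS no longer passed without shEZH2 replicate 1 (adjusted p = 0.0871) or shNTC replicate 1 (adjusted p = 0.0692).

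ACAT2, a cytosolic acetoacetyl-CoA thiolase at the first step, read 12.80 and 12.58 with shNTC and 11.65 and 12.28 with shEZH2. Its arms do not overlap either, and it fell by 0.72 (SE 0.19, adjusted p = 0.0316, limma), but not without shEZH2 replicate 1 (adjusted p = 0.104) or shNTC replicate 1 (adjusted p = 0.0755). IDI1, the isopentenyl pyrophosphate isomerase, read 13.24 and 13.19 with shNTC and 12.32 and 12.92 with shEZH2 on its brightest probe set, and fell by 0.60 (SE 0.17, adjusted p = 0.0443, limma). IDI1 kept its call in the fewest settings. It was lost without any of shNTC replicate 1, shNTC replicate 2 or shEZH2 replicate 1 (adjusted p = 0.0833, 0.0598 and 0.0931), and without the probe sets that can bind several transcripts it read 0.47 higher (adjusted p = 0.179).

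MVK, PMVK and MVD, which phosphorylate mevalonate and then decarboxylate it, did not pass. PMVK was the only mevalonate enzyme whose brightest probe set had the lower shEZH2 value on replicate 2. It read 10.97 and 11.06 with shNTC and 10.79 and 10.66 with shEZH2 (difference -0.29, SE 0.11, adjusted p = 0.0848, limma). MVD read 7.83 and 7.91 with shNTC but 7.12 and 7.82 with shEZH2, so only replicate 1 stood clear of the control arrays. The MVK difference was -0.19 on its brightest probe set. Its other kept probe sets, each tested on its own, gave -0.18 and -0.63 (adjusted p = 0.506 and 0.0536, limma). The last of these had the lower shEZH2 value on replicate 2.

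The sterol steps were split. Of 11 enzymes 9 were measured, 2 fell and 0 rose, against 12.3% and 13.1% of all genes, and the median was -0.34. SQLE, the squalene epoxidase, read 12.92 on both shNTC arrays, against 12.15 and 12.53 with shEZH2. It fell by 0.58 (SE 0.12, adjusted p = 0.0154, limma). EBP, the sterol isomerase, read 11.60 and 11.64 with shNTC and 10.73 and 11.22 with shEZH2, and fell by 0.65 (SE 0.16, adjusted p = 0.0232, limma). For both genes the shNTC arrays differed by under 0.1 log2 units while the shEZH2 arrays differed by 0.382 and 0.491, and neither gene passed without shEZH2 replicate 1 (adjusted p = 0.0553 for SQLE and 0.0751 for EBP). The other 3 SQLE probe sets were not called (-0.48, -0.65 and -0.03; adjusted p = 0.133, 0.0921 and 0.936), and the mean of its probe sets gave -0.43 (adjusted p = 0.112).

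DHCR7, which makes cholesterol in its last reduction, read 10.78 and 10.67 with shNTC and 9.79 and 10.43 with shEZH2. Its difference of -0.61 (SE 0.20, adjusted p = 0.062, limma) missed the threshold, although its arms do not overlap. MSMO1, the methylsterol monooxygenase, gave 13.16 and 13.18 with shNTC and 12.98 and 13.36 with shEZH2, a difference of 0.00 (SE 0.12). Its shNTC arrays lay between the shEZH2 arrays. LSS, NSDHL, TM7SF2 and SC5D also had overlapping arms: LSS, the lanosterol synthase, read 10.93 and 11.22 with shNTC against 10.48 and 11.33 with shEZH2. HSD17B7 differed by -0.36 (adjusted p = 0.119) and SC5D, the lathosterol desaturase, by 0.09 (adjusted p = 0.752).

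SREBF1 and SREBF2, which encode the SREBP factors, differed. SREBF1 read 10.33 and 9.91 with shNTC and 9.06 and 9.28 with shEZH2, with Pfeiffer at 9.52 and 9.08. It fell by 0.95 (SE 0.17, adjusted p = 0.00917, limma) to 51.9% of the control level, and its shEZH2 arrays were only 0.22 apart; with either shEZH2 array left out the difference was -0.84 or -1.06 but the call was lost (adjusted p = 0.0811 and 0.0568). SREBF2 read 9.92 and 9.82 with shNTC, 9.98 and 9.93 with shEZH2, and 9.63 and 9.69 in Pfeiffer. Its difference was 0.08 (SE 0.12, adjusted p = 0.654, limma), and its other kept probe sets gave -0.13 and -0.19.

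INSIG1, whose product holds SREBP in the endoplasmic reticulum and which is itself an SREBP target, had the widest replicate gap of the 26 genes. It read 12.49 and 12.42 with shNTC, 11.56 on shEZH2 replicate 1 and 12.71 on shEZH2 replicate 2, so that 1 shEZH2 array lay below both controls and the other above both. The difference was -0.32 (SE 0.31, adjusted p = 0.492, limma). STARD4, a sterol carrier, showed the same arrangement at 10.70 and 10.76 with shNTC and 10.46 and 10.91 with shEZH2.

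All 6 fatty acid enzymes measured read lower with shEZH2 in KARPAS-422, against 51.6% of all genes, with a median of -0.62. Of the 6, 4 fell, against 12.3% of all genes. FASN, the fatty acid synthase, read 11.43 and 11.55 with shNTC and 9.99 and 10.53 with shEZH2, and 11.12 and 10.64 in Pfeiffer. It fell by 1.23 (SE 0.17, adjusted p = 0.00377, limma), leaving 42.6% of the control level. FADS2, the delta-6 desaturase, read 9.89 and 10.04 with shNTC and 8.56 and 9.03 with shEZH2, and 10.60 and 10.14 in Pfeiffer. It fell by 1.17 (SE 0.17, adjusted p = 0.00454, limma), leaving 44.4%. In FASN and FADS2 the whole gap between arms exceeded the gap between the shEZH2 arrays, and both passed without any 1 KARPAS-422 array. In each such fit the arm left with 1 array is assumed to vary like the other KARPAS-422 arm, from which the spread comes with 1 residual degree of freedom.

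ELOVL6, which lengthens palmitate, read 12.92 and 13.10 with shNTC and 12.03 and 12.62 with shEZH2, and fell by 0.68 (SE 0.18, adjusted p = 0.0319, limma). ELOVL6 did not pass without shEZH2 replicate 1 (adjusted p = 0.106) or shNTC replicate 2 (adjusted p = 0.072). ACLY, which makes cytosolic acetyl-CoA from citrate, read 13.84 and 13.94 with shNTC and 13.60 and 13.54 with shEZH2 on its brightest probe set. Its shEZH2 arrays were 0.06 apart, and it fell by 0.32 (SE 0.07, adjusted p = 0.0167, limma); after quantile normalization the difference was -0.11 (adjusted p = 0.261) and after cyclic loess -0.03 (adjusted p = 0.742). It was also lost without shNTC replicate 2, shEZH2 replicate 1 or shEZH2 replicate 2 (adjusted p = 0.104, 0.0649 and 0.0907). SCD, the stearoyl-CoA desaturase, read 12.81 and 12.73 with shNTC and 11.82 and 12.62 with shEZH2 on its brightest probe set, a difference of -0.55 (SE 0.22, adjusted p = 0.111). ACACA, the acetyl-CoA carboxylase that commits carbon to fatty acids, differed by -0.18 (adjusted p = 0.278) on its brightest probe set.

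**Figure D2:**
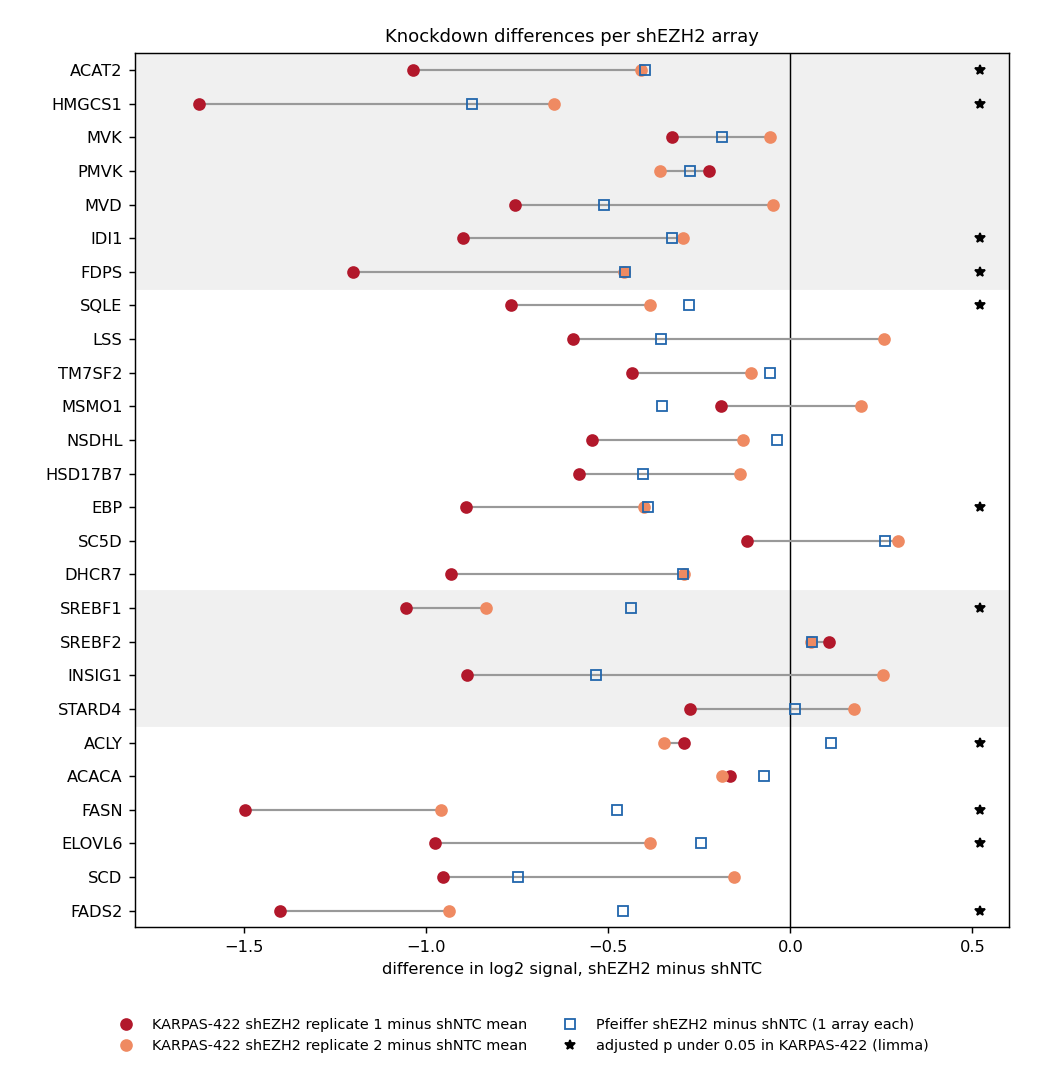
Difference from the KARPAS-422 shNTC mean for each shEZH2 array of KARPAS-422 (circles joined by a line), and shEZH2 minus shNTC in Pfeiffer (open squares), in log2 signal on the x axis, for the 26 genes in the order of their roles (shaded in turn). Stars mark the 11 genes called in KARPAS-422; replicate 1 (dark red) lies left of replicate 2 (orange) for 22 of 26 genes, and the lines of FASN, FADS2 and SREBF1 stay left of -0.8.

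The KARPAS-422 shEZH2 arrays disagreed on many of these genes. Replicate 1 read below replicate 2 for 22 of the 26 genes, against 46.3% of all genes, and by at least 0.5 log2 units for 11 of 26 (42.3%), against 6.87%. No member was higher on replicate 1 by that much. The median of replicate 1 minus replicate 2 was -0.46 for the members and 0.02 for all genes. On the shNTC arrays the same difference had a median of 0.05 for the members and -0.03 for all genes, and 0 of 26 members differed by 0.5 or more, against 16.6% of all genes.

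By role the median of replicate 1 minus replicate 2 with shEZH2 was -0.63 for mevalonate enzymes, -0.42 for sterol enzymes, -0.34 for sensing and transport genes and -0.50 for fatty acid enzymes. INSIG1 had the widest gap at -1.14, followed by HMGCS1 at -0.97, LSS at -0.85, SCD at -0.80, FDPS at -0.74 and MVD at -0.71. SREBF2, ACLY, ACACA and PMVK were the 4 members with replicate 1 above replicate 2 on their brightest probe sets, by 0.02 to 0.13. The other kept probe sets gave -0.10 and -0.30 for ACLY, -0.24 for ACACA, and 0.18 and 0.20 for SREBF2. Over all 55 kept probe sets of the members, 46 read lower on replicate 1. EZH2 itself differed by -0.04 between these arrays. Proliferation genes had a median gap of 0.07 and interferon-stimulated genes of 0.06, and their differences from the shNTC mean were alike on both arrays, at -0.47 and -0.58 for proliferation and 3.12 and 3.06 for interferon genes. With shEZH2 the members' median difference from the shNTC mean was -0.76 on replicate 1 and -0.24 on replicate 2. With 1 array on each side this gap has no replicate check.

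**Figure D3:**
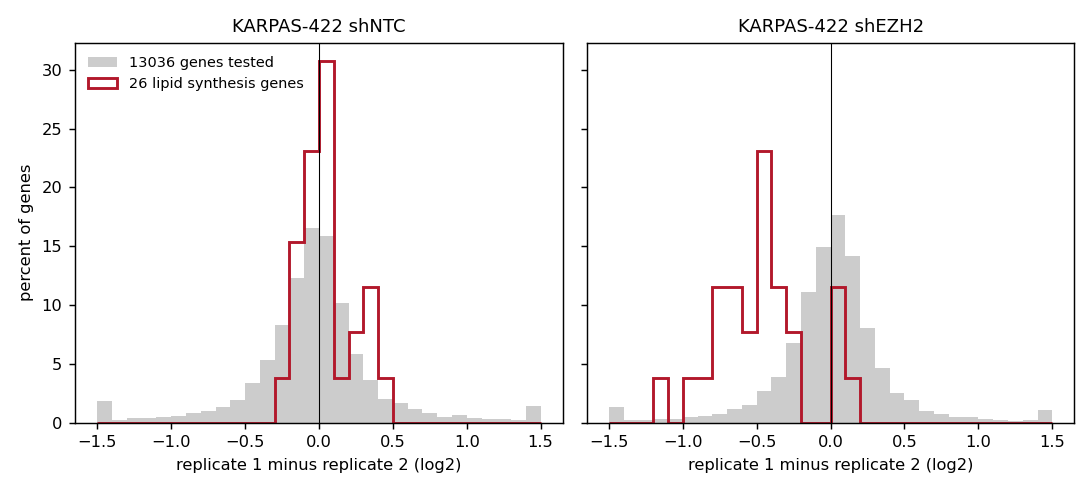
Distribution of replicate 1 minus replicate 2 (x axis, log2 signal) within each KARPAS-422 arm, as percent of genes (y axis), for all 13036 genes tested (grey) and the 26 lipid synthesis genes (red outline); the end bins also hold values beyond the axis. The red outline is centred near 0 with shNTC (median 0.05) and lies to the left with shEZH2 (median -0.46).

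Probe sets of the same gene did not always give the same size of change. Over all members 55 probe sets were kept and tested one by one in KARPAS-422. At an adjusted p under 0.05 (limma, over 25186 probe sets) 21 were lower and 0 higher, against 9.10% and 12.4% of all kept probe sets. At least 1 was called lower for 14 members. The share of all genes with such a call was not computed, and a gene with more probe sets has more chances of it. SCD is read by 4 probe sets, and the brightest moved least: in order of falling signal the differences were -0.55, -1.11, -1.40 and -1.69, and the last 3 were called (adjusted p = 0.0263, 0.0167 and 0.0455). INSIG1 went the same way, at -0.32, -0.55 and -1.05, with none called (adjusted p = 0.508, 0.212 and 0.0631). The dimmer probe set of ACACA gave -0.95 (adjusted p = 0.0067) against -0.18 on the brightest, and that of NSDHL, a sterol dehydrogenase, -0.95 (adjusted p = 0.0251) against -0.34. All 3 probe sets of ACLY were called, at -0.32, -0.76 and -0.66.

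IDI1 and LSS disagreed in sign. The 2 bright IDI1 probe sets gave -0.60 and -0.51 and the 2 dimmer ones 0.43 and 0.47. LSS gave -0.17, 0.33 and 0.12, none of them called. Both HMGCS1 probe sets (-1.14 and -0.96), all 3 of ELOVL6 (-0.68, -0.79 and -0.79) and all 4 of EBP (-0.65, -0.46, -0.28 and -0.88) read lower. For EBP only the brightest was called, and the others had adjusted p = 0.0898, 0.324 and 0.0874 (limma).

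**Figure D4:**
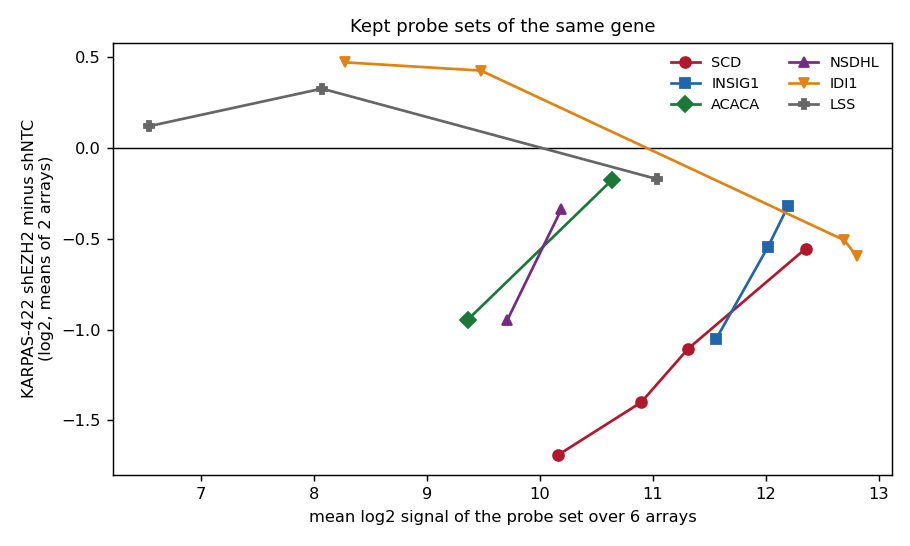
KARPAS-422 difference (y axis, log2, shEZH2 mean minus shNTC mean of 2 arrays each) against the mean signal over 6 arrays (x axis, log2) for the kept probe sets of 6 genes, joined within a gene. For SCD, INSIG1, ACACA and NSDHL the brightest probe set lies closest to 0, and for IDI1 and LSS the probe sets lie on both sides of 0.

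In Pfeiffer the same genes mostly read lower too, with no replicate check. Of 26 members 22 read lower with shEZH2, against 45.4% of all genes tested, with a median of -0.34 against 0.03 for all genes. A drop of 0.5 or more was seen for 4 members, against 6.11% of all genes: HMGCS1 at -0.88, SCD at -0.75, INSIG1 at -0.53 and MVD at -0.51. No member rose by that much, against 11.9% of all genes. SC5D (0.26), ACLY (0.11), SREBF2 (0.06) and STARD4 (0.01) were the 4 that read higher on their brightest probe sets. All 7 mevalonate enzymes read lower in Pfeiffer, with a median of -0.40, while FASN was at -0.48, FADS2 at -0.46 and SREBF1 at -0.44. On their brightest probe sets MSMO1 (-0.35), LSS (-0.36), SCD, INSIG1, MVD and HSD17B7 (-0.40) had larger drops in Pfeiffer than in KARPAS-422. The other kept SCD probe sets dropped more in KARPAS-422 (-1.11, -1.40 and -1.69) than in Pfeiffer (-0.77, -0.13 and -0.88). Those of INSIG1 were mixed, at -0.55 and -1.05 in KARPAS-422 and -0.67 and -0.59 in Pfeiffer. For scale, the absolute gap between KARPAS-422 replicates over the members had a median of 0.099 with shNTC and 0.458 with shEZH2. In Pfeiffer proliferation genes had a median of -0.35 and interferon-stimulated genes of 0.67.

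Over both lines together, with a term for the line, 4 of 26 members fell and 0 rose, against 2.46% of all genes called lower and 3.76% higher, 6.22% in all. They were HMGCS1 at -1.05 (adjusted p = 0.0411), FASN at -0.98 (adjusted p = 0.037), FADS2 at -0.93 (adjusted p = 0.039) and SREBF1 at -0.78 (adjusted p = 0.0427), by limma with n = 3 per arm, and 14 members had an unadjusted p under 0.05. All 4 calls were lost when any 1 KARPAS-422 array was left out (adjusted p from 0.123 to 0.2). The effect of the hairpin was not shown to differ between lines for any member: 0 of 26 passed the limma test of that difference, against 1.70% of all genes (1.25% higher and 0.453% lower), and 3 had an unadjusted p under 0.05. The median of KARPAS-422 effect minus Pfeiffer effect was -0.24, and 0.00 without shEZH2 replicate 1. The members with the widest difference were FASN, at -0.75 (SE 0.30, adjusted p = 0.261), and FADS2, at -0.71 (SE 0.30, adjusted p = 0.285). The estimate for ACLY, whose brightest probe set read lower in KARPAS-422 and higher in Pfeiffer, was -0.43 (SE 0.12, adjusted p = 0.142). The other kept ACLY probe sets read lower in Pfeiffer too, at -0.26 and -0.30.

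Under the control hairpin the lines differed in 6 of these genes. KARPAS-422 shNTC minus Pfeiffer shNTC passed for 2 members higher and 4 lower, against 21.7% and 22.5% of all genes (44.2% in all), and 12 had an unadjusted p under 0.05; a p that misses the threshold does not show equal levels. The single Pfeiffer array was assumed to vary like the KARPAS-422 replicates. ELOVL6 read 12.92 and 13.10 in KARPAS-422 and 11.09 in Pfeiffer, a difference of 1.92 (SE 0.22, adjusted p = 3.90e-04, limma). MSMO1 was higher in KARPAS-422 by 1.08 (SE 0.15, adjusted p = 0.00107). MVD, the mevalonate pyrophosphate decarboxylase, read 7.83 and 7.91 in KARPAS-422 and 9.32 in Pfeiffer, a difference of -1.45 (SE 0.31, adjusted p = 0.00754).

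SC5D at -0.99 (SE 0.22, adjusted p = 0.00851), STARD4 at -0.71 (SE 0.19, adjusted p = 0.0184) and FADS2 at -0.63 (SE 0.21, adjusted p = 0.0467) were also lower in KARPAS-422. The FADS2 call was lost without shNTC replicate 1 (adjusted p = 0.0926), and median centring gave 8 members higher and 2 lower. Without shEZH2 replicate 1 or replicate 2, which are not part of this contrast but feed its variance, 6 were higher and 6 lower, without shNTC replicate 1 it was 2 and 3, and without shNTC replicate 2 it was 4 and 5. For HMGCS1 the difference between lines was 0.58 (SE 0.33, adjusted p = 0.192), for FASN 0.37 (SE 0.21, adjusted p = 0.202) and for SREBF1 0.60 (SE 0.21, adjusted p = 0.0563).

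**Figure D5:**
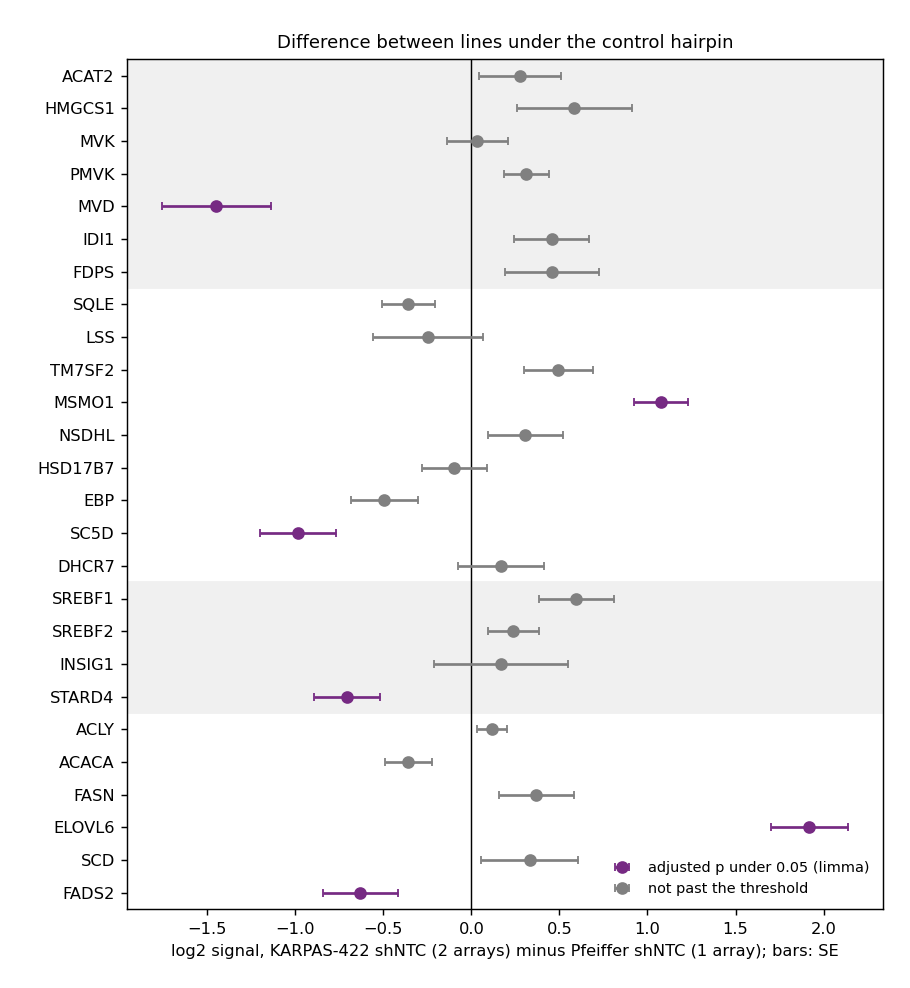
KARPAS-422 shNTC (mean of 2 arrays) minus Pfeiffer shNTC (1 array) in log2 signal (x axis) for the 26 genes, with bars for limma's standard error and shading by role. The 6 genes past the threshold are in purple, with ELOVL6 at 1.92 and MSMO1 at 1.08 on the right and MVD at -1.45 on the left.

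Neighbouring genes of lipid metabolism were described by lists. Of 17 other genes of sterol sensing, trafficking and isoprenoid synthesis, 15 were tested; in KARPAS-422 2 rose and 1 fell, against 13.1% and 12.3% of all genes, and the median was 0.07. NPC2, which moves cholesterol out of lysosomes, read 10.52 and 10.53 with shNTC and 11.84 and 11.68 with shEZH2, and rose by 1.24 (adjusted p = 5.20e-04, limma). INSIG2, the other INSIG gene, rose by 0.66 (adjusted p = 0.0222), where INSIG1 did not pass; its call was lost without shNTC replicate 1, shEZH2 replicate 1 or shEZH2 replicate 2 (adjusted p from 0.0632 to 0.143). TMEM97 fell by 0.35 (adjusted p = 0.0175), a call lost without shNTC replicate 2 or either shEZH2 array (adjusted p from 0.0703 to 0.0856). CH25H, which makes 25-hydroxycholesterol, did not pass the filter on dim signal: it read 2.93 and 5.55 with shNTC and 4.61 and 4.92 with shEZH2 in KARPAS-422, and 3.08 and 5.28 in Pfeiffer.

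Of 8 LXR and sterol efflux genes 7 were tested, 1 rose and 0 fell, against 13.1% and 12.3% of all genes, and the median was -0.25. That gene was ABCA1, the cholesterol exporter, which read 8.19 and 7.81 with shNTC and 10.49 and 10.52 with shEZH2 and rose by 2.50 (adjusted p = 2.19e-04, limma). In Pfeiffer ABCA1 read 9.42 with shNTC and 7.91 with shEZH2, so it went the other way there. Its shEZH2 replicates in KARPAS-422 were 0.03 apart, against a median absolute gap of 0.458 for the synthesis genes.

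Of 20 other genes of fatty acid synthesis and elongation 16 were tested, 2 rose and 4 fell, against 13.1% and 12.3% of all genes, and the median was -0.05. SCD5, another stearoyl-CoA desaturase, read 9.11 and 9.18 with shNTC and 10.61 and 10.45 with shEZH2, and rose by 1.39 (adjusted p = 7.85e-04, limma) while SCD read lower. ELOVL5 rose by 0.25 (adjusted p = 0.041). TECR and HACD3, which reduce and dehydrate the growing chain, fell by 0.44 and 0.32 (adjusted p = 0.0152 and 0.0238), SLC25A1, the citrate carrier, by 0.39 (adjusted p = 0.0233) and HACD2 by 0.32 (adjusted p = 0.0465). Of these 6 calls SCD5 alone held without each of the KARPAS-422 arrays.

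Of 18 fatty acid oxidation genes 15 were tested, 1 rose and 5 fell in KARPAS-422, against 13.1% and 12.3% of all genes, and the median was -0.28 there and 0.09 in Pfeiffer. CPT1A, which admits fatty acids to mitochondria, read 9.61 and 9.96 with shNTC and 8.91 and 8.54 with shEZH2, and fell by 1.06 (adjusted p = 0.00708, limma); the mean of its probe sets gave -0.52 (adjusted p = 0.289), and without shEZH2 replicate 2 the adjusted p was 0.062. ECI1 fell by 0.95 (adjusted p = 0.00266), ETFDH by 0.47 (adjusted p = 0.0412) and ETFB by 0.39 (adjusted p = 0.0155), and HADHB rose by 0.40 (adjusted p = 0.0286). The remaining gene called lower was HADHA, at -0.38 (adjusted p = 0.0351, limma), which the naming rule given below did not pick. The HADHA call was not followed through the settings. The ECI1 call held without each KARPAS-422 array, and those of ETFDH, ETFB and HADHB were each lost without 3 of the 4 (adjusted p from 0.0718 to 0.184). In the 4 lists the median of shEZH2 replicate 1 minus replicate 2 was 0.04, -0.03, -0.05 and -0.11, in the order given, against -0.46 for the 26 synthesis genes.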

How the data were processed

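RNA of KARPAS-422 and Pfeiffer was hybridised to 6 arrays, and titles gave each sample its group and number. The deposited values are log2 MAS5 signals: the submitters' processing notes name MAS5 with no version, and the log base and the target of 500 were read from the values. MAS5 scales each array separately, and dim signals spread widely on the log scale. Detection calls and scan dates were not used here, the hairpin sequences are not reported here, and the number of arrays limits the precision.

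Probe sets with a single gene symbol (41091 of 54675; 1801 had several, 11721 none and 62 were controls) were kept where at least 2 of 6 arrays exceeded the median of all values (6.205), and the kept probe set with the highest mean represented each of 13036 genes. For each of the 26 members it was the brightest probe set overall. Two-sided tests were run in R 4.3.3 with limma 3.58.1 (lmFit, then eBayes allowing the variance to follow intensity); p-values were adjusted by Benjamini-Hochberg across the whole table, with a threshold of 0.05. A model of 4 groups gave KARPAS-422, the line difference and the difference of effects (2 residual degrees of freedom, from KARPAS-422 only); the model over both lines had 3. Pfeiffer was not tested. No pseudocount was added in the reported values.

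The scripts were tested on simulated data with 200 of 13036 genes changed: for KARPAS-422 they recovered 34% of changes of 1 log2 unit and 63% of 2 units, for both lines 56% and 76%, for the difference of effects 4% and 32%, and for the line difference 20% and 54%. The adjusted p depends on how many genes change, and in the data 25.4% of genes were called in KARPAS-422. These recovery rates therefore describe the simulated setting only. All members and, for neighbouring lists, up to 4 called genes per direction and CH25H were named. The members and lists were chosen with earlier results of these data known. Alternatives were other scalings, pseudocounts, filters, probe set rules, variance models, a replicate block and leaving out each KARPAS-422 array.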

Additional observations from a re-analysis of the deposited data

Results flagged for a closer look

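For 4 genes of the neighbouring lists the hairpin effect differed between lines in the limma test of that difference (KARPAS-422 effect minus Pfeiffer effect), against 1.70% of all genes tested. It differed by 4.01 for ABCA1 (SE 0.29, adjusted p = 0.00393), with 2.50 in KARPAS-422 and -1.51 in Pfeiffer. It differed by 1.12 for NPC2 (SE 0.18, adjusted p = 0.028), with 1.24 and 0.12, and by 1.32 for SCD5 (SE 0.22, adjusted p = 0.035), with 1.39 and 0.07. For ACADVL, a mitochondrial acyl-CoA dehydrogenase that the naming rule did not pick, the effects were -0.32 and 0.77 and the difference -1.09 (SE 0.18, adjusted p = 0.0364). Each Pfeiffer arm is 1 array, and all 4 calls were lost without either KARPAS-422 shEZH2 array (adjusted p from 0.101 to 0.206) and without the intensity trend (adjusted p from 0.102 to 0.198). None of the 26 synthesis genes was among the calls.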

How the results depend on the processing

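No member rose in KARPAS-422 under any setting. The 11 that fell became 5 after quantile or cyclic loess normalization, against 12.2% and 9.25% of all genes called lower. They became 5 without _x_at and _s_at probe sets (16 members tested), against 8.72%, and 7 with no filter, against 6.2%. Without the intensity trend they became 0, against 1.03% (genes called 3305, then 720). Testing each kept probe set on its own, chosen after seeing the data, gave 14 members, with no share of all genes computed beside it. Leaving out 1 array gave 3 to 12 members and 963 to 2762 genes. Over both lines the 4 members became 10 with median centring, 5 or 6 with 16 or 64 added to the linear signal, 6 with 3 of 6 arrays above the median, 1 without _x_at and _s_at probe sets and 0 with no filter, without the trend or without any 1 array; the 811 genes became 1494, 302 (no filter), 501, 0 (no trend) and 0 to 17. No member passed for the difference of effects under any setting, and its 222 genes became 114 (no filter), 1 (no trend) and 0 to 473 without 1 array. Between lines 2 members were higher (8 with median centring, 2 to 6 without 1 array) and 4 lower (2 with median centring, 7 with cyclic loess, 1 without _x_at and _s_at probe sets or the trend, 3 to 6 without 1 array). With the replicate number as a block the counts were 12 members lower in KARPAS-422, 0 over both lines (11 genes), and 378 genes for the difference of effects. Deviations of same-numbered KARPAS-422 arrays correlated at 0.00651 over all genes tested. A correlation over all genes cannot tell whether same-numbered arrays were handled together.

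Signs reversed for SREBF2 (-0.0086 quantile, -0.078 mean of probe sets), MSMO1 (-0.057 median centring), LSS (0.093 mean of probe sets) and IDI1 (0.47 without _x_at and _s_at probe sets). Without 1 array the KARPAS-422 difference ranged from -0.19 to 0.19 for MSMO1, -0.60 to 0.26 for LSS, -0.89 to 0.25 for INSIG1, -0.28 to 0.18 for STARD4 and -0.12 to 0.30 for SC5D. The cause was not tested. Under the 3 other scalings the median of all genes in KARPAS-422 lay between -0.08 and -0.03, against -0.02 as deposited, and calls lower made up 48.5% of calls as deposited, 51.7% (quantile), 57.3% (median centring) and 43.1% (cyclic loess). Precision is limited by the 2 residual degrees of freedom, by the single Pfeiffer arrays and, for dim probe sets, by signal near background.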
